A study of Mus musculus with 4 samples.

Results

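The genes described here encode 10 enzymes of glycolysis: *Hk2*, *Gpi1*, *Pfkp*, *Aldoa*, *Tpi1*, *Gapdh*, *Pgk1*, *Pgam1*, *Pkm* and *Ldha*. They were chosen by name, for their place in the pathway, out of 3488 genes in the pair of marker tables. Group 2 innate lymphoid cells (ILC2s) were sorted as lineage-negative CD127+Thy1+ST2+ cells from the liver and lung of wild-type BALB/c mice, 8 weeks old, given an intraperitoneal injection each day over 5 days, of PBS in controls and of recombinant IL-33 (rIL-33, 0.5 µg) in the treated mice. Tissue from several mice was pooled into each of 4 single-cell libraries, 1 for each organ under each treatment. The tables merge the libraries, so neither treatment nor organ could be compared, and no value has a replicate.

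Glycolysis splits glucose into pyruvate in the cytosol and yields ATP and NADH without oxygen. Hexokinase, glucose phosphate isomerase and phosphofructokinase prepare the sugar, aldolase splits it, and the later enzymes, from triosephosphate isomerase to pyruvate kinase, return ATP. Lactate dehydrogenase A turns pyruvate into lactate and restores NAD+. Activated and dividing lymphocytes are known to raise glycolysis, and ILC2s respond to IL-33 by making type 2 cytokines.

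Each row of a table, called a listing here, gives 1 gene in 1 cluster: the percentage of cells in the cluster where the gene's value exceeded 0, and the same percentage in all other cells. A gene was listed where the authors' comparison put its average higher in the cluster. A missing listing does not show that a gene was low there. The cell type table covered 1679 genes in 21 cell types, and the ILC2 subcluster table covered 2629 genes in 10 ILC2 subclusters with numbers from 0 to 9. The tables give neither cell numbers nor depth per cell, and no counting interval was computed. Their rounding error was 0.05 percentage points at most. Of the 8 ILC2 markers examined, 7 were listed for the type named ILC2. Ahead of the subclustering the authors filtered on markers of other cells, *Cd3*, *Cd11b*, *Fceri* and *Cd45r* among them, by a threshold not given in the sources used here. No marker of B cells, myeloid cells, basophils, hepatocytes or lung epithelium was listed for any subcluster, which that filter bears on, while 5 of 9 T cell markers, 2 of 6 NK cell and ILC1 markers and 1 of 3 endothelial markers were.

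Of the 10 enzymes, 9 were listed in the subcluster table, with 20 listings, and 7 in the cell type table, with 24. *Aldoa*, which encodes aldolase A, was listed in neither. *Gpi1* and *Pfkp* were listed for ILC2 subclusters alone. In the ILC2 subclusters, 5 of the 9 enzymes were listed at least 2 times, where 29.2% of all genes of that table were. In the cell types 6 of 7 were, against 62.2% of all genes. These percentages, like those given for single clusters below, are shares of the genes with at least 1 listing, because the tables leave out genes that were tested and not listed.

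The genes lie on 5 autosomes and the X chromosome of the mouse, and all are protein-coding in GENCODE M21 on GRCm38, the assembly also called mm10. *Hk2* is at chr6:82725025-82774454 (minus strand), *Tpi1* at chr6:124810586-124814296 (minus) and *Gapdh* at chr6:125161715-125166467 (minus). *Gpi1* is at chr7:34201330-34230336 (minus), *Ldha* at chr7:46841475-46855627 (plus) and *Pfkp* at chr13:6579768-6648777 (minus). *Pkm* is at chr9:59656368-59679375 (plus), *Pgam1* at chr19:41911923-41918660 (plus) and *Pgk1* at chrX:106187100-106203699 (plus). For *Aldoa* the annotation holds 2 genes of the same symbol, at chr7:126795234-126800751 and chr7:126800790-126809108 (both minus). Related copies named as pseudogenes or related sequences number 3 for *Pgk1* and 2 each for *Aldoa*, *Gapdh*, *Pgam1* and *Ldha*, and how reads shared with such copies were counted was not stated. Libraries were read at transcript 3′ ends, so the isoforms of *Pkm* were not told apart.

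Hypoxia-inducible factor 1 is a known activator of glycolysis genes. The letters ACGTG are 1 form of the core of the element it binds, and GCGTG is the other. Promoter sequences are shown for *Pgk1*, *Pgam1*, *Ldha* and *Tpi1*, which were listed together in subcluster 4. They come from RefSeq on GRCm38.p6 and run from 250 bases before to 50 bases after a transcript start, 5′ to 3′ on the strand of the gene. Capitals mark ACGTG on either strand (ACGTG or CACGT), and the palindrome CACGTG counts as 2 matches. *Gapdh* and *Pkm*, also listed for subcluster 4, are not shown. *Gapdh* had 1 match, and the windows of *Pkm* had 0 and 2. *Pgk1* (chrX:106186850-106187149, plus strand) had the most subclusters listing it, with *Gapdh*, and 2 matches. *Pgam1* (chr19:41911621-41911920, plus strand) had 1 match, *Ldha* (chr7:46845554-46845853, plus strand) had 5 in this window and 0 in its second window (chr7:46846832-46847131), which is not shown, and *Tpi1* (chr6:124814109-124814408, minus strand), with the widest difference in share, had 0.
Pgk1: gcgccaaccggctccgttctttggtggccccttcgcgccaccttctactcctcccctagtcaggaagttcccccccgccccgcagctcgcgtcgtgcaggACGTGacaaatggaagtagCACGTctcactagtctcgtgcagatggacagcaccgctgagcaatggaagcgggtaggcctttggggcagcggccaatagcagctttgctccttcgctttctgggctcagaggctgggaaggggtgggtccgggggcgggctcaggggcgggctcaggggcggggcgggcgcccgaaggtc
Pgam1: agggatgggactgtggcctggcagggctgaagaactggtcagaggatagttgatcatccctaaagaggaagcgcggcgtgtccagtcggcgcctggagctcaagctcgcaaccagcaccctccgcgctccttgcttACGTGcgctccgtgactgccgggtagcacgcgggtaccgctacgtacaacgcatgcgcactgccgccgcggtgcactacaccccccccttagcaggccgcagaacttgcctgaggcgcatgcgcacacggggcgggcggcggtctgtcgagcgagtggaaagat
Ldha: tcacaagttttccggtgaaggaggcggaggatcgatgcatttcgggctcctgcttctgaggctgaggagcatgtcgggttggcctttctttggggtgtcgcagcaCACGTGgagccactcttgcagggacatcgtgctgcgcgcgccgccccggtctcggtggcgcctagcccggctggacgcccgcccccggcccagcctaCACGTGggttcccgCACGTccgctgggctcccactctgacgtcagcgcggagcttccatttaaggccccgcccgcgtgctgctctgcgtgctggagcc
Tpi1: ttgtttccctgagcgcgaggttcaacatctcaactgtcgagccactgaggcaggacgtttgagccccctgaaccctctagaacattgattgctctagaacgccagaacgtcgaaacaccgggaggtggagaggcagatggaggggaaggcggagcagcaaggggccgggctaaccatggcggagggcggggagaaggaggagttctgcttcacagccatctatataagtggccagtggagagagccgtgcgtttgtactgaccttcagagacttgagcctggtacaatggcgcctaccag

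All 10 enzymes had at least 1 such 300-base window, 14 in all. ACGTG on either strand was found for 7 of the 10 genes (70.0%), against 21.8% of 27025 genes with a window and 30.5% of the genes of the subcluster table that had one. *Gpi1*, *Pfkp* and *Tpi1* were the genes with no match to ACGTG. The other form, GCGTG (or CACGC), was found for 4 of the 10 (40.0%), against 35.2% and 58.7%. *Pfkp* was among these, with 4 matches. Genes with several starts have more windows, a match is only a match of letters, and a window with none says nothing about the factor.

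The subclusters of ILC2s differed in how many of the enzymes they listed. Subcluster 4 listed 6, subclusters 2 and 6 listed 4 each, subcluster 7 listed 3, subcluster 1 listed 2 and subcluster 5 listed 1. Subclusters 0, 3, 8 and 9, which together held 43.5% ± 0.0710 (standard error of the size fit) of the ILC2s, listed 0. The rates for all genes of the table were 30.5% for subcluster 4, 4.98% for subcluster 2, 7.23% for subcluster 6, 10.3% for subcluster 7, 13.8% for subcluster 1 and 38.0% for subcluster 5. They were 11.4%, 9.01%, 9.62% and 7.57% for subclusters 0, 3, 8 and 9. Subclusters 2 and 6 thus had the lowest rates over all genes and 4 of the 9 enzymes each, while subcluster 5 had the highest rate and 1 enzyme.

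**Figure D1:**
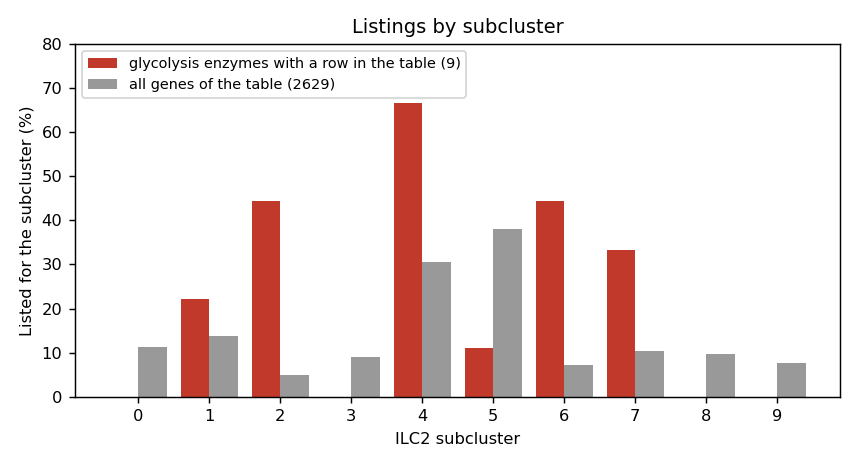
Percentage of genes listed for each ILC2 subcluster (horizontal axis), for the 9 glycolysis enzymes with a row in the table (red) and for all 2629 genes of the table (grey). The red bars are above the grey bars in subclusters 1, 2, 4, 6 and 7, lowest of these in subcluster 1 with 2 enzymes, and below them in the other subclusters.

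Subcluster 4, which held 9.23% ± 0.0113 of the ILC2s, listed every measured enzyme after the aldolase step and no enzyme before it: 6 of 6 against 0 of 3, a division made after the listings were seen. Triosephosphate isomerase (*Tpi1*), which interconverts the pair of three-carbon sugars, was found in 91.9% of its cells and 50.1% of the other ILC2s. Phosphoglycerate mutase 1 (*Pgam1*) was found in 93.4% against 53.8%. Phosphoglycerate kinase 1 (*Pgk1*), the first step to make ATP, was found in 96.2% against 65.7%. These 3 had the widest positive differences of all the enzymes' listings among subclusters, from 30.5 to 41.8 percentage points.

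The other 3 enzymes of subcluster 4 were near the upper limit of a share. *Pkm*, whose product makes pyruvate and ATP, was found in 97.8% of the cells against 83.9%. *Ldha* was found in 99.5% against 92.4%, and *Gapdh*, the oxidation step, in 99.8% against 93.0%. Cells without the transcript made up 0.500% of subcluster 4 for *Ldha*, against 7.60% of the other ILC2s, and 0.200% for *Gapdh*. *Ldha* and *Tpi1* were listed for no other subcluster.

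If counts per cell followed a Poisson distribution, −ln(1 − share) would be their mean, and the ratio of this value inside and outside can be compared between common and rare transcripts. In subcluster 4 it was 3.62 for *Tpi1*, 3.52 for *Pgam1*, 3.06 for *Pgk1*, 2.34 for *Gapdh*, 2.09 for *Pkm* and 2.06 for *Ldha*. The ratio takes no account of depth per cell. The shares themselves do not either, and the 802 listings of subcluster 4 had a median difference of 34.1 percentage points, above the median of 22.2 for its 6 enzymes. Proliferation genes moved with these listings: subcluster 4 listed 15 of 17, among them *Mki67* in 54.7% of its cells against 15.0% and *Stmn1* in 77.2% against 9.80%. It also listed *Nkg7* (30.5% against 11.7%) and *Gzma* (25.8% against 9.70%), 2 of the 6 NK cell and ILC1 markers, of which *Ncr1*, *Klrb1c*, *Tbx21* and *Eomes* were not listed for any subcluster. Their part in the result was not tested.

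**Figure D2:**
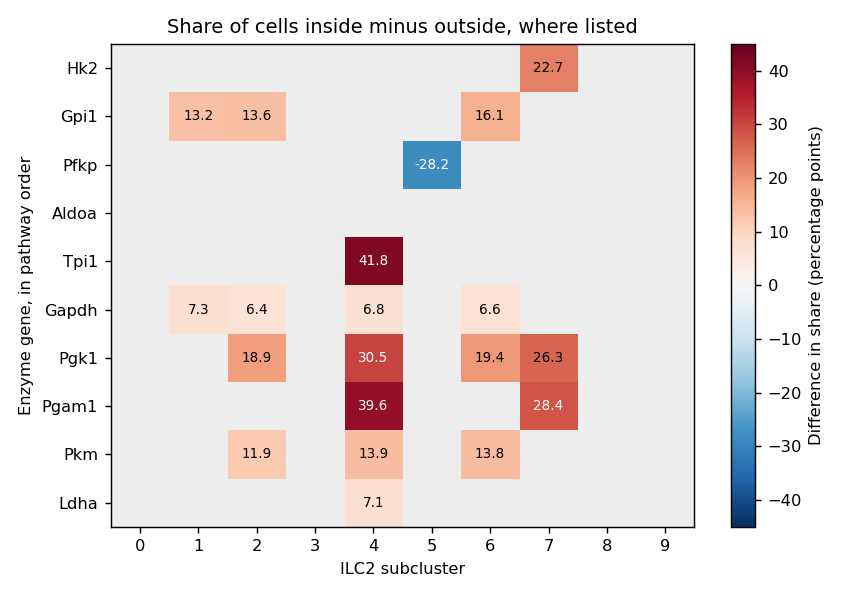
Difference between the shares inside and outside, inside minus outside, in percentage points (colour and number), for each enzyme in pathway order (rows) and each ILC2 subcluster (columns). Light grey cells have no listing. Subcluster 4 has entries from *Tpi1* (41.8) down to *Ldha* (7.1), *Gpi1* has entries for subclusters 1, 2 and 6, and the entry of *Pfkp* for subcluster 5 is the negative one.

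Subclusters 1, 2 and 6 shared another pair of enzymes. *Gpi1*, which converts glucose 6-phosphate to fructose 6-phosphate, was listed for these 3 and for no other, and subcluster 4 did not list it. Its share was 93.0% in subcluster 1 against 79.8% outside, 93.5% against 79.9% for subcluster 2, and 97.9% against 81.8% for subcluster 6. The shares of subclusters 1 and 2 were 0.5 percentage points apart, and with no error over mice their order is not established.

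*Gapdh* was listed for the same 3 subclusters and for subcluster 4. Its share was 99.5% in subcluster 1, 98.9% in subcluster 2 and 100% in subcluster 6, against 92.2%, 92.5% and 93.4% of the respective other ILC2s. The share of 100% is as rounded in the table. The order of these 4 subclusters for *Gapdh* spans 1.1 percentage points and is not established.

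*Pkm* and *Pgk1* were listed for subclusters 2 and 6 but not for subcluster 1. *Pkm* was found in 94.9% of subcluster 2 against 83.0%, and in 98.4% of subcluster 6 against 84.6%. *Pgk1* was found in 84.0% of subcluster 2 against 65.1%, and in 87.2% of subcluster 6 against 67.8%. For *Pgk1* these were the lowest of its 4 listed shares, below 94.5% in subcluster 7 and 96.2% in subcluster 4. The median difference over the 4 enzymes was 12.8 percentage points in subcluster 2 and 15.0 in subcluster 6, beside medians of 16.1 and 16.3 over all listings of these subclusters. Subcluster 6 also listed 3 of the 9 T cell markers, with *Cd3g* in 46.1% of its cells against 32.4%, *Tcrg-C1* in 40.1% against 25.5% and *Trbc2* in 88.0% against 81.5%, and *Cd3e* and *Trdc* were not listed for it. Subclusters 1 and 2 listed *Trbc2* as their 1 T cell marker. Of the proliferation genes, *Hmgb2* was listed for subclusters 1 (99.3% against 91.6%), 2 (98.9% against 91.8%) and 6 (99.0% against 92.9%), and *Top2a* for subcluster 6 (49.0% against 29.6%) and for subcluster 8 (49.4% against 30.2%), which listed 0 enzymes. The part of these genes in the enzyme listings was not tested. Subcluster 1 also listed the endothelial marker *Pecam1* (38.1% against 24.6%), while *Cdh5* and *Kdr* were listed for no subcluster.

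Subcluster 7, with 1.42% ± 0.0144 of the ILC2s, was the subcluster that listed *Hk2*. Hexokinase 2 phosphorylates glucose and is the inducible member of its family. Its share there was 34.0%, against 11.3% in the other ILC2s, a ratio of 3.47 on the −ln(1 − share) scale. The subcluster also listed *Pgk1*, in 94.5% against 68.2%, and *Pgam1*, in 85.5% against 57.1%. Its median difference over the 3 enzymes was 26.3 percentage points, beside 23.1 over its 270 listings. Subcluster 7 also listed 1 of the 6 NK cell and ILC1 markers, *Nkg7* (40.0% against 13.0%). Of the 9 T cell markers it listed 1, *Tcrg-C1* (42.0% against 25.8%). Of the 17 proliferation genes it listed 1, *H2afz* (99.5% against 89.7%). The part of these genes was not tested.

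*Pfkp*, the platelet form of phosphofructokinase, was listed for subcluster 5 alone. It was found in 14.7% of those cells and 42.9% of the other ILC2s, so fewer cells had the transcript although the average over cells had been placed higher. The same was true of 978 of the 1000 listings of subcluster 5 (97.8%), against 29.4% of all listings of the table. *Pfkp* is 1 of these and its share gives no sign of higher expression. Subcluster 5 also listed 3 of the 9 T cell markers. *Cd3e* was found in 32.0% of its cells against 4.70% and *Cd3g* in 39.5% against 32.6%. *Trdc* was found in 25.6%, which was 18.6 percentage points above the other ILC2s. Of the 6 NK cell and ILC1 markers it listed 1, *Nkg7*, in 26.3% against 12.9%. The part of these markers was not tested.

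**Figure D3:**
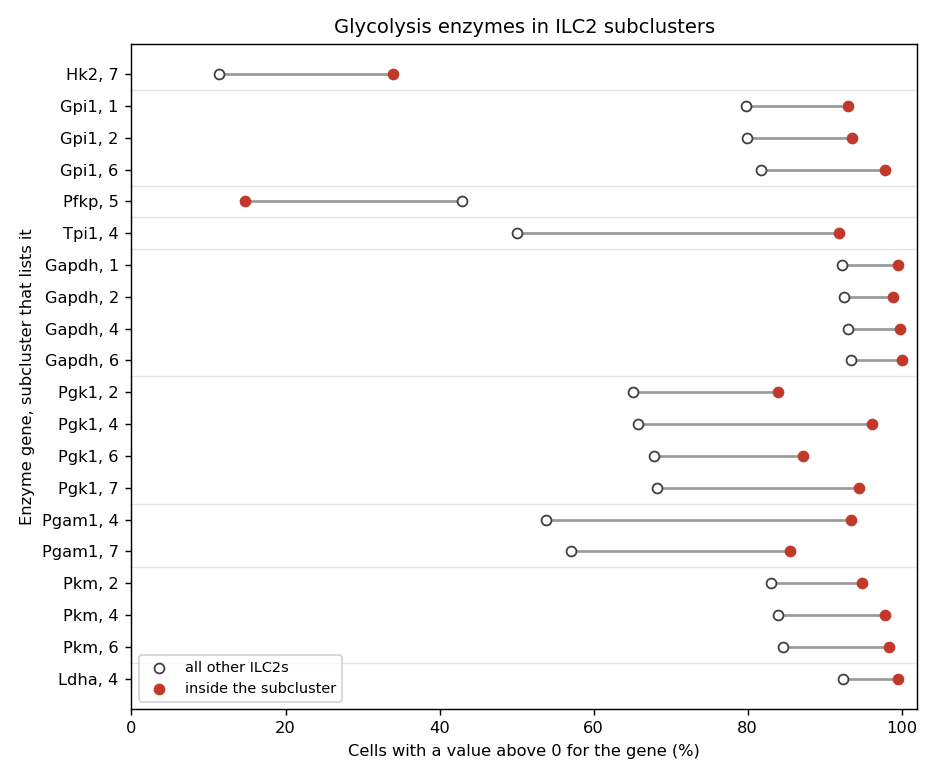
Cells in which each enzyme's value exceeded 0 (horizontal axis, percent), inside the subcluster that lists it (red) and in all other ILC2s (open circles). Gene and subcluster number label the rows. *Tpi1* and *Pgam1* in subcluster 4 show the longest positive gaps, and *Pfkp* in subcluster 5 is the row with the red point on the left.

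The shares allow a look at the subclusters that did not list an enzyme. With cluster sizes solved from the shares, each enzyme's share over all ILC2s and in the non-listing subclusters together was computed, with errors from rounding and from the size fit. *Pgk1* was found in 88.3% ± 0.0190 of the cells of its 4 listing subclusters combined and in 59.0% ± 0.0281 of the others. *Gpi1* was found in 93.7% ± 0.0189 against 74.2% ± 0.0295, and *Pkm* in 96.2% ± 0.0193 against 80.1% ± 0.0238. *Gapdh* was found in 99.4% ± 0.0163 of the 4 subclusters that listed it, which held 51.3% of the ILC2s, and in 87.6% ± 0.0311 of the remaining ones. *Pgam1* was found in 92.3% ± 0.0268 against 53.3% ± 0.0222. *Hk2* and *Pfkp* were lowest, found in 11.3% and 42.9% of the ILC2s outside the subcluster that listed them. For the other enzymes the pooled shares in non-listing subclusters ran from 50.1% ± 0.0289 for *Tpi1* to 92.4% ± 0.0289 for *Ldha*. How many of the values above 0 came from transcripts of other cells was not tested. The values for single non-listing subclusters could not be solved.

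Shares of T cell genes differed widely between the tables. *Cd3e*, a chain of the T cell receptor complex, had a value above 0 in 83.5% of all sorted cells in the cell type table, and in 5.76% of all ILC2s in the subcluster table. The type named ILC2 held 43.2% of the sorted cells. With the *Cd3e* share of the subcluster table in that type and every other cell above 0, the share over all sorted cells would reach 59.3%. For *Cd3g* the same values were 85.5%, 32.9% and 71.0%. These limits take over a share from cells that had been filtered on *Cd3* among other markers, so they hold only if the type named ILC2 had few more cells with these genes. The methods describe scaling to a common total and a log transformation, but not for each table whether its shares came from those values. Among the enzymes, *Hk2* differed most, with a value above 0 in 50.2% of all sorted cells and in 11.6% of all ILC2s, followed by *Pgam1* with 69.0% and 57.5%. *Tpi1* (55.8% and 54.0%), *Gapdh* (95.9% and 93.7%), *Pgk1* (69.5% and 68.5%), *Pkm* (84.3% and 85.2%) and *Ldha* (90.7% and 93.1%) were closer. The tables were therefore read separately, and the percentages of the cell type table below are of cells with a value above 0. Whether such a value stands for a detected transcript in that table was not settled.

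Among all sorted cells, most enzymes were listed for the type spelled Prolifelation cell in the table. It held 6.23% ± 0.00695 of the sorted cells and listed 5 of the 7 enzymes with a row, against 30.6% of all genes. *Tpi1* was above 0 in 93.6% of these cells against 53.3% of all other cells, *Pgk1* in 97.6% against 67.6%, and *Pgam1* in 96.5% against 67.2%. *Pkm* was above 0 in 99.0% against 83.3% and *Gapdh* in 99.8% against 95.6%. These are 5 of the 6 enzymes listed for ILC2 subcluster 4, *Ldha* being the other. All 17 proliferation genes were listed for this type. Of the 6 NK cell and ILC1 markers it listed 2, *Gzma* (90.4% against 37.5%) and *Eomes* (92.2% against 63.0%). *Ncr1*, *Klrb1c*, *Tbx21* and *Nkg7* were not listed for it. The part of the listed genes in the enzyme listings was not tested. Its median difference over the enzymes was 29.3 percentage points, beside 36.0 over all of its listings.

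For the type named ILC2, 43.2% of the sorted cells, *Ldha* was the 1 enzyme listed, where 8.10% of all genes were. *Ldha* was above 0 in 96.1% of these cells and 86.6% of all others. The second type with *Ldha* was Basophil, with 98.2% against 90.6%. Basophils also listed *Hk2*, in 73.1% against 49.9%, with a rate over all genes of 16.4%. *Ldhb*, the other main lactate dehydrogenase subunit, was listed for ILC2 too, with 50.1% against 34.6%, and with wider differences for ILC1_ILC3 (74.3% against 41.1%) and Macrophage (63.8% against 40.2%). Its difference in Treg was 1.70 percentage points. The 2 listing types together had *Ldha* in 96.2% ± 0.0282 of cells, and the remaining types in 86.4% ± 0.0317. The type named ILC2 also listed *Epcam*, 1 of the 2 lung epithelium markers (47.5% against 36.9%). Basophil listed *Pecam1*, 1 of the 3 endothelial markers (62.4% against 47.0%), and the myeloid marker *Itgam* with a lower share inside (41.2% against 45.9%). The part of these markers was not tested.

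The types named ILC1_ILC3 and ILC3 both listed *Hk2* and *Pkm*, as 1 gamma delta T cell type, gdT_TypeIII_CD163l1, also did. ILC1_ILC3, with 0.592% ± 0.00996 of the cells, listed 4 enzymes where 13.4% of all genes were listed: *Hk2* in 74.3%, which was 24.3 percentage points above all other cells, *Tpi1* in 77.0% against 55.7%, *Pgam1* in 78.7% against 68.9% and *Pkm* in 91.8% against 84.2%. ILC3 listed 3 where 9.11% of all genes were: *Hk2* in 67.2% against 49.9%, *Pkm* in 88.0% against 84.2% and *Pgk1* in 70.5% against 69.4%. The difference of 1.10 percentage points for *Pgk1* was the smallest among the enzymes. ILC3 also listed 6 of the 9 T cell markers, with *Cd3e* in 91.4% against 83.3% and *Cd3g* in 97.1% against 85.3%, and with *Cd3d* below the other cells. ILC1_ILC3 listed 1 of the 9 T cell markers, *Cd4* (77.0% against 54.3%). Of the 6 NK cell and ILC1 markers it listed 2, *Ncr1* (79.2% against 63.8%) and *Klrb1c* (66.7% against 50.7%). The part of these markers in the enzyme listings was not tested.

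The progenitor type MMP_LMPP listed *Tpi1* and *Pkm*, where 24.0% of all genes were listed. *Tpi1* was above 0 in 91.9% of its cells against 55.7%, and *Pkm* in 98.4% against 84.2%. It also listed 3 of the 17 proliferation genes, *Mcm3* (64.2% against 44.3%), *Mcm6* (86.2% against 41.1%) and *Stmn1* (91.9% against 43.5%). Of the 5 B cell and plasma cell markers it listed 2, *Cd79a* (76.4% against 27.8%) and *Ighm* (91.1% against 65.1%). Of the 5 myeloid markers it listed 1, *Itgam* (74.0% against 45.8%). *Ms4a1*, *Igkc*, *Lyz2* and *Cd68* were listed for other types only. The part of the listed genes was not tested. Of the gamma delta T cell types, gdT_TypeIII_CD163l1 listed 3 enzymes (11.4% of all genes): *Hk2* in 54.9% against 50.1%, *Pgk1* in 76.6% against 69.4% and *Pkm* in 90.5% against 84.2%. gdT_TypeIII_ITGAE listed *Hk2* alone (11.7% of all genes), in 55.1% against 50.1%. The differences for *Hk2* in these T cell types were 4.80 and 5.00 percentage points, against 17.3 to 24.3 in Basophil, ILC3 and ILC1_ILC3.

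The other 3 listings had a lower share inside the type than outside. CD4 listed *Pkm* in 75.9% of cells against 84.5% and Treg listed it in 77.6% against 84.4%, with rates over all genes of 7.80% and 8.93%. CD8_Naive listed *Pgam1* in 64.1% against 69.1%, with a rate of 11.8%. Such listings were 76.3% of all listings of CD4, 51.3% of Treg and 57.1% of CD8_Naive, against 16.3% of the whole table. The remaining 10 cell types, among them NK, ILC1, Macrophage and Endothelium cell, listed 0 of the enzymes, with rates over all genes from 1.67% to 23.6%.

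**Figure D4:**
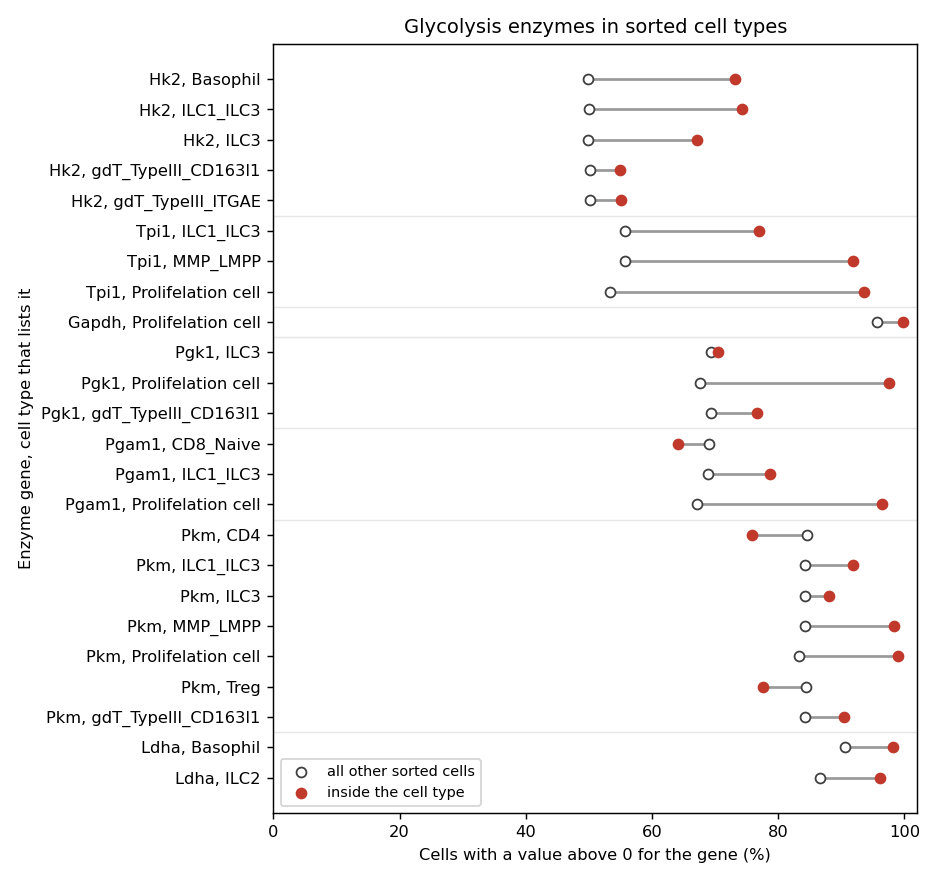
Cells in which each enzyme's value exceeded 0 (horizontal axis, percent), inside the cell type that lists it (red) and in all other sorted cells (open circles). The widest gap is that of *Tpi1* in Prolifelation cell (93.6% against 53.3%), and *Pgam1* in CD8_Naive and *Pkm* in CD4 and Treg have the red point on the left.

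Of 26 other genes of the pathway, 2 were listed in the subcluster table and 3 in the cell type table. *Eno1*, the enolase that acts between *Pgam1* and *Pkm*, was listed for subcluster 4, in 96.6% of cells against 69.3%, which leaves no step between *Tpi1* and *Ldha* unlisted there. In the cell type table *Eno1* was listed for ILC1_ILC3 (93.4% against 78.5%) and ILC1 (81.5% against 78.5%), and for CD4 and CD8_Effector with shares below those of other cells. *Mpc1*, part of the mitochondrial pyruvate carrier, was listed for subcluster 8, in 78.7% against 61.8%. *Slc2a3*, a glucose transporter, was listed for Basophil (65.7% against 42.8%), gdT_TypeIII_CD163l1 (59.3% against 42.8%) and ILC2_2 (29.1% against 43.3%). The first 2 of these types also listed *Hk2*.

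Pathways that branch from glycolysis or follow it were listed in part for subcluster 4, with 2 of the 3 pentose phosphate genes and 6 of the 7 citric acid cycle genes that had a row, beside 30.5% of all genes. Of 7 pentose phosphate genes, *Tkt* (92.2% against 59.1%) and *Pgls* (94.6% against 73.2%) were listed for subcluster 4, and *Taldo1* for subclusters 2 (92.7% against 78.9%) and 6 (14.1 percentage points above the 80.9% of the other ILC2s). Of 20 citric acid cycle genes 7 were listed, 6 of them for subcluster 4, with *Fh1* in 70.5% of cells against 30.4%, *Idh3a* in 77.1% against 39.8% and *Mdh2* in 96.6% against 75.3%. The other three were *Sdhb* (93.1% against 63.4%), *Sdhd* (86.3% against 53.8%) and *Suclg1* (90.4% against 58.0%). The cell type table listed 0 of the 20, so none for Prolifelation cell, while it listed *Pgls* and *Tkt* for that type and for MMP_LMPP, and *Pgls* for Macrophage. *Idh3a* was listed for subcluster 1 as well (54.0% against 40.6%), and *Dlst* for subcluster 5, in 11.9% against 30.2%. Of 6 gluconeogenesis genes, the pathway the study followed in hepatocytes, 0 were listed in either table.

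All 8 ILC2 effector genes had a row in the subcluster table. Subcluster 3 listed 5, subclusters 0 and 7 listed 3 each, subclusters 2, 8 and 9 listed 2 each, subclusters 1, 4 and 6 listed 1 each, and subcluster 5 listed 0. *Il13*, the cytokine at the centre of the study, was listed for 4 subclusters that listed enzymes, with 52.8% of cells against 33.0% in subcluster 1, 56.5% against 32.6% in subcluster 2, 62.1% against 34.4% in subcluster 4 and 60.5% against 36.6% in subcluster 7, and for subcluster 8, which listed no enzyme and had the highest share, 69.7% against 36.8%. It was not listed for subcluster 6, which listed 4 enzymes. *Gata3* and *Il1rl1*, the receptor chain for IL-33, were listed for subclusters 0 and 3, which listed 0 enzymes. *Gata3* was found there in 93.6% of cells against 89.9%, and in 94.8% against 90.2%.

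The genes with listings most like those of the enzymes were found by the mean Jaccard index, the number of shared listing clusters divided by the number listed for either gene. Over the 10 subclusters and 9 enzymes these were *Cmtm7*, *Fabp5*, *Smco4* and *Tox2*, each at 0.444 and each listed for subclusters 2, 4, 6 and 7, as *Pgk1* was, followed by *Atp5g2* at 0.435. Over the 21 cell types and 7 enzymes they were *Fkbp2*, *H2afy*, *Rilpl2* and *S100a11* at 0.380 and *Odc1* at 0.372. All 5 of the latter were listed for ILC1_ILC3 and for Prolifelation cell. The choice rests on the index, since simple matching named none of these genes in either table (0 of 5 shared).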

How the data were processed

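Single-cell 3′ libraries were mapped to mm10 by the authors, using Cell Ranger. The authors removed cells with few detected genes, scaled counts to a common total per cell, log transformed them, clustered cells in Seurat over all 4 libraries and listed markers per cluster. Doublets were gated out in the cell sort, per the methods, which name no doublet caller. Before subclustering, the authors filtered cells on markers of other cell types, which left cells with *Cd3e* and *Cd3g* values above 0. The deposited values used here are fractions of cells with a value above 0, to 3 decimals, inside a cluster and in all other cells, printed as percentages. The tables also hold the authors' fold changes, all positive, and p-values. These are comparisons by the authors and were not used. There is 1 library in each group and cells are not replicates, so no test was run.

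Cluster sizes were solved by least squares from genes listed for at least 2 clusters, since the share outside plus size times the difference is the same for each cluster listing a gene (Python 3.11.15, numpy 2.4.6, pandas 2.3.3). Tested on simulated data with the same listings, the largest size error was 0.0298 percentage points over 1679 genes of the cell type table and 0.0111 over 2629 genes of the ILC2 subcluster table. Every enzyme was named, with the listed genes of the pathway lists and the 5 genes of each table with the highest likeness. Proliferation, effector and marker genes were given by counts and examples, named where a result touched them. The enzymes and lists were chosen with earlier results of these data known. Alternatives counted only listings with a higher share inside or one at least 10 percentage points higher, and changed the size fit, the scale and the likeness.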

Additional observations from a re-analysis of the deposited data

How the results depend on the processing

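Depth per cell, cell numbers and variation between mice are not in the tables and limit every value. No paired analysis was possible because there was a single library in a group and its values were merged with those of the others. When listings with a share inside below that outside were dropped, 21 of 24 listings of the enzymes in the cell types and 19 of 20 in the ILC2 subclusters were kept. A difference of at least 10 percentage points left 10 and 14, on 5 and 6 enzymes. Subcluster 4 then had 4 enzymes, subclusters 2, 6 and 7 had 3 each and subcluster 1 had 1, which follows from the near-complete shares of *Gapdh* and *Ldha*. Among the cell types it left 2 of 4 enzymes for ILC1_ILC3, 1 of 3 for ILC3, 1 of 2 for Basophil and 0 for ILC2 and both types named gdT_TypeIII. The share of all genes that passes this cut was not computed, so the counts under it have no background rate. On the −ln(1 − share) scale the median differences of 8.55 and 13.9 percentage points became median ratios of 1.61 and 2.09, without *Gapdh* in subcluster 6, whose share of 100% gives no ratio. For the cell type table it was not read as a ratio of transcript counts. Other size fits gave 62 values, of which 61 were inside the 95% interval of the size fit. The exception was subcluster 1, at 20.0% in place of 20.1% when sizes were scaled to sum to 100%. All 32 shares in non-listing clusters were inside theirs. With simple matching in place of the Jaccard index, 0 of the 5 most similar genes stayed the same in either table.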

Other observations

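Other genes known to respond to hypoxia-inducible factor 1 were listed for several subclusters, and their part in the enzyme listings was not tested. Of 13, 4 were listed among ILC2 subclusters. *Mif* (98.9% of cells against 80.3%) and *Higd1a* (92.1% against 59.0%) were listed for subcluster 4, as 6 of the enzymes and 30.5% of all genes were. *Ddit4*, an inhibitor of mTOR signalling, was listed for subclusters 1, 2, 6, 7 and 8, from 73.0% against 55.6% in subcluster 8 to 81.0% against 55.3% in subcluster 7. *Ero1l*, an oxidase of the endoplasmic reticulum, was listed for subclusters 6 (83.7% against 64.9%) and 7 (83.0% against 65.4%), and for subcluster 3 with a share below that of other ILC2s.

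*Hif1a* itself was listed for subclusters 1 (68.0% against 51.5%) and 8 (73.0% against 54.7%), and not for subcluster 4. These are shares of cells by transcript, and the part of *Hif1a* in the enzyme listings was not tested. Among the other regulators, *Slc7a5*, a chain of the large amino acid transporter, was listed for subcluster 4 in 27.2% of cells against 4.70%, while its partner *Slc3a2* was listed for subclusters 0, 3 and 9, and for subcluster 5 with a share below that of other ILC2s (43.2% against 77.9%). In the cell type table *Myc* was listed for MMP_LMPP (82.9% against 45.9%), which listed *Tpi1* and *Pkm*, but also for gdT_TypeIII_ITGAE (71.9% against 45.8%), which listed *Hk2* alone, and for Plasma cell (62.4% against 46.0%), which listed 0 enzymes. *Slc7a5* was listed there for Basophil (51.3% against 37.2%), which listed *Hk2* and *Ldha*, and for ILC2_2 (69.3% against 36.8%), which listed 0.

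Of the 13 hypoxia-inducible factor 1 targets, 7 were listed for cell types, where percentages are of cells with a value above 0. Basophil listed 3, *Ddit4* (98.5% against 52.2%), *Ero1l* (95.2% against 58.4%) and *Ndrg1* (65.1% against 28.8%). *Ero1l* was also listed for the other types that listed *Hk2* except ILC1_ILC3, with 72.6% against 58.5% in ILC3, 87.5% against 58.3% in gdT_TypeIII_CD163l1 and 81.6% against 58.5% in gdT_TypeIII_ITGAE, and for ILC2 (67.9% against 51.8%). *Mif* was listed for Prolifelation cell (97.7% against 86.8%) and MMP_LMPP (99.2% against 87.4%), and *Ndrg1* for MMP_LMPP (91.9% against 28.9%) as well. Prolifelation cell and MMP_LMPP both listed *Tpi1* and *Pkm*, as did ILC1_ILC3, which listed none of the 13 targets. *Mif* was also listed for CD8_Naive and, with a share below other cells, gdT_Naive, and *Ndrg1* for Endothelium cell, Treg and gdT_TypeIII_ITGAE. *Vegfa* (Endothelium cell, 90.8% against 48.4%) and *Ankrd37* (Plasma cell, 57.1% against 29.7%) were listed for types with 0 enzymes. *P4ha1* was listed for Treg (68.4% against 52.7%) and for CD4 with a share below that of other cells.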
